A study of Mus musculus with 4 samples.

Results

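The Smok genes encode the sperm motility kinases, and 6 of them (Smok2a, Smok2b, Smok3a, Smok3b, Smok3c and Smok4a) were taken by gene symbol from the 17934 genes measured in mouse testis. All 6 symbols were present, on 7 RefSeq transcripts. The family was picked because Smok3b and Smok3c lay on opposite sides of the genotype comparison, so the levels that follow are descriptions and carry no test. Testis RNA came from male C57BL/6 mice fed a western diet for 18 weeks. The wild-type group (WT, Tas1r3+/+) had 2 libraries, and the group homozygous for a null allele of Tas1r3 (Tas1r3 KO, Tas1r3-/-) had 2 libraries. Tas1r3 encodes a taste receptor subunit that both sweet and umami receptors use, and the comparison asks which testicular transcripts differ when it is missing under this diet. Every mouse ate the same diet, and the labels give neither an age, nor the construction of the allele, nor whether 1 animal or several gave the libraries of a genotype, so p-values measure only the spread between libraries, which may be technical.

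Sperm motility kinases are relatives of the AMP-activated protein kinase family that are made in the haploid cells of the testis, the spermatids. They are known from the mouse t haplotype, a variant of chromosome 17 that is passed on by heterozygous males to most of their offspring. In that system the t complex responder is a mutant Smok kinase fused to part of the ribosomal S6 kinase gene Rps6ka2, and the distorter genes (Tagap1, Fgd2, Nme3 and Tiam2) act upstream of the kinase, which controls sperm movement.

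The members lie in 3 places on the mm39 build, all on the plus strand. Smok3a (138019538 to 138032927), Smok3b (138035486 to 138048895) and Smok3c (138051457 to 138064801) stand in a row on chromosome 5. Smok2a (13440075 to 13446545) and Smok2b (13449150 to 13456076) are neighbours on chromosome 17, within the region of the t complex. Smok4a (13741718 to 13748696) lies farther along chromosome 17, inside the span of the non-coding gene 2700054A10Rik on the opposite strand. GENCODE lists Smok4a as a processed transcript of a transcribed pseudogene, so the label of kinase does not apply to it, and the other 5 are listed as protein-coding.

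The 3 Smok3 copies are near-identical, and where they differ decides which reads can tell them apart. In the GENCODE M21 transcripts (GRCm38), the coding sequences of Smok3a and Smok3b were the same over all 1515 bases, and exons 2 and 3 showed 0 differences over 1900 bases. They differed only in the untranslated exon 1, by 6 substitutions over 427 aligned bases and 6 gapped positions. Smok3b and Smok3c had the opposite layout, with 0 substitutions over 433 aligned bases of exon 1, 30 substitutions over 1586 bases of exon 2 and 4 over 310 bases of exon 3. The Smok3b transcript therefore reads as the first exon of Smok3c followed by exons 2 and 3 of Smok3a. Of the 34 substitutions between Smok3b and Smok3c, 27 lay in the coding sequence. A stretch of 60 coding bases that holds 8 of them, coding bases 151 to 210 of Smok3b, is shown because it has no gap in the 5 coding members and it tells Smok3c from both other copies. Capitals mark bases unlike Smok3b, and the GRCm38 positions are chr5:138032526-138032585 for Smok3a, chr5:138048497-138048556 for Smok3b, chr5:138064403-138064462 for Smok3c, chr17:13225688-13225747 for Smok2a and chr17:13235045-13235104 for Smok2b, all on the plus strand.
Smok3a: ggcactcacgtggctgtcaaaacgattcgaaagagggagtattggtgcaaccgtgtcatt
Smok3b: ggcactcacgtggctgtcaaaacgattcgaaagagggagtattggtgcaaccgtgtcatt
Smok3c: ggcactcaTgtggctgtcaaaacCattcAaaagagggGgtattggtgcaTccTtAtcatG
Smok2a: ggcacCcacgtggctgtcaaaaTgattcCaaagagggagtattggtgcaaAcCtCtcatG
Smok2b: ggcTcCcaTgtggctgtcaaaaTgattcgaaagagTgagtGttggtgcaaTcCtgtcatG
In this stretch Smok3c differed from Smok3b at 8 positions, Smok2a at 7 and Smok2b at 9. Counted from 1 at the first base of the Smok3b start codon, the Smok3c substitutions were C159T, G174C, G179A, A188G, A200T, G203T, G205A and T210G.

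**Figure D1:**
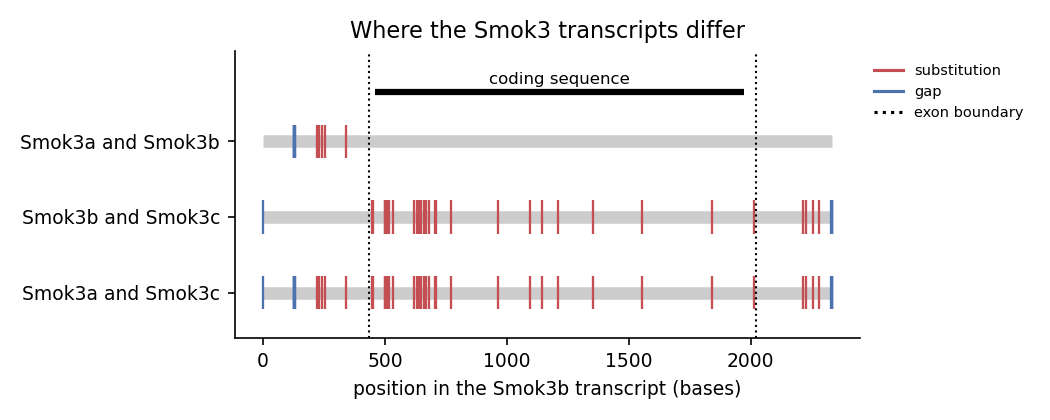
Positions along the Smok3b transcript (x axis, bases) at which each pair of Smok3 transcripts differs, with substitutions in red, gaps in blue and exon boundaries dotted. Smok3a and Smok3b differ only in exon 1, while the 34 substitutions between Smok3b and Smok3c all lie past it.

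Windows of 100 bases show what this layout means for short reads. Every one of the 2234 windows of Smok3b occurred exactly in another gene, with 87.5% of them in Smok3a and 43.6% in Smok3c. Smok3a in its form of 3 exons had 108 of 2228 windows (4.85%) found in no other gene, and Smok3c had 1194 of 2231 (53.5%). Smok3c was therefore the copy of the 3 with the most sequence of its own, and Smok3b had none at this window length. With 200 bases, 4.4% of the Smok3b windows and 81.6% of the Smok3c windows were found in no other gene. The sources used here do not give the read length. Smok2a and Smok2b were better separated, with 90.2% and 92.4% of their windows of 100 bases in no other gene, although their aligned coding sequences were 93.5% identical. Smok4a had 42.3% of such windows to itself and shared nearly all of the rest with Gm8603, an unprocessed pseudogene, so its value is uncertain for that reason too.

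**Figure D2:**
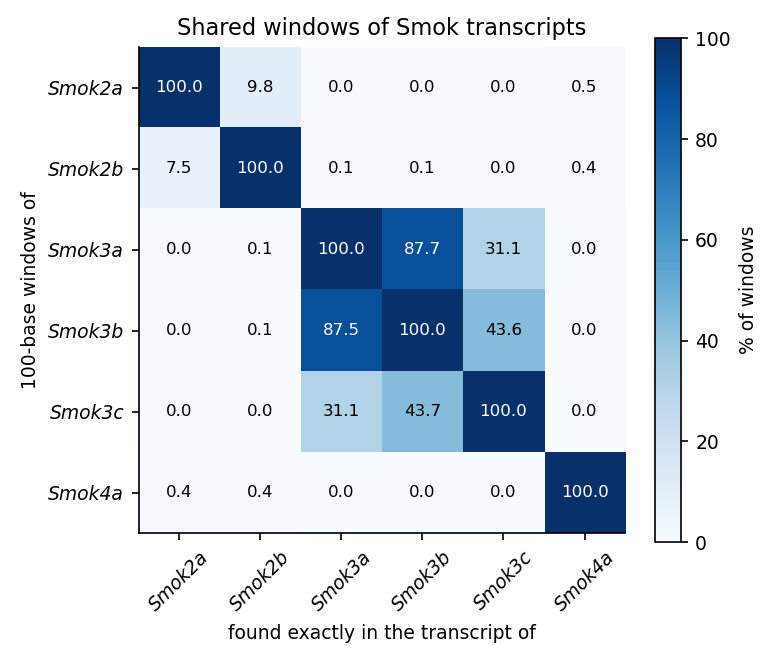
Percentage of the 100-base windows of each Smok transcript (rows) that occur exactly in the transcript of another member (columns). Smok3a and Smok3b share 87.5% to 87.7%, Smok3b and Smok3c 43.6% to 43.7%, and Smok2a and Smok2b 7.5% to 9.8%.

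The sequence around the transcription starts was also near-identical, but here Smok3b was closest to Smok3c, as in exon 1, and not to Smok3a. RefSeq windows of 300 bases around the start (GRCm38.p6) matched for 4 members. The Smok3b and Smok3c windows were identical, Smok3a differed from them at 1 of 285 aligned bases, and Smok2b differed from Smok3b at 14 of 250. The last 80 bases before the Smok3b start and their counterparts are shown because the copies that stood on opposite sides of the comparison cannot be told apart there. They lie at chr5:138021181-138021260 for Smok3a, chr5:138037144-138037223 for Smok3b, chr5:138053115-138053194 for Smok3c and chr17:13230133-13230212 for Smok2b on the plus strand, and capitals mark bases unlike Smok3b.
Smok3a: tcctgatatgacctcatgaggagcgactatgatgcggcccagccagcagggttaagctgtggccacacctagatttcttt
Smok3b: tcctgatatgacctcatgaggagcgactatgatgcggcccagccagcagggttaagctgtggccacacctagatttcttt
Smok3c: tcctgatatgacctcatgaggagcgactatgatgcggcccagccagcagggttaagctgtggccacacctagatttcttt
Smok2b: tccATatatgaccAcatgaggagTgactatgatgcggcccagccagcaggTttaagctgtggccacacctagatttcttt
None of the 4 held the cyclic AMP response element TGACGTCA, the shorter TGACG (which that element contains), TATAAA or CCAAT on either strand of the 250 bases before the start. Over 27025 genes these letters were found in 1.6%, 17.9%, 13% and 34.5% of such windows.

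The libraries differed in depth, which sets how finely these genes can be read. Values are CPM (read counts scaled to the same total in each library), and from the CPM that a single read is worth, the WT libraries held an estimated 1719356 and 1807694 reads and the KO libraries 748638 and 597937. Tas1r3 itself had 13.8 and 20.5 CPM in WT against 1.34 and 0 CPM in KO. Across 17654 genes tested, limma called 1 gene at a Benjamini-Hochberg (BH) adjusted p under 0.05, which is 0.00566%. That gene was not Tas1r3 (BH-adjusted p = 0.627 by limma), so a gene that did not pass may still differ. Summed markers of each germ and somatic testis cell type looked at were above 0 in every library, with 4 of 5 macrophage markers in the tables. Epididymis markers, 2 of 4 in the tables, summed to 46.1 and 0 CPM in WT against 1.34 and 0 CPM in KO. Red blood cell markers summed to 31.9 and 168 CPM in WT against 25.1 and 43.9 CPM in KO. Elongating spermatid markers summed to 26973 and 26795 CPM in WT against 22846 and 33721 CPM in KO. KO replicate 2 thus had the most and KO replicate 1 the least of these markers.

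The values listed for Smok3b were near the floor in WT and well above it in KO. Since no 100-base window of Smok3b was its own, reads of that length cannot show that they came from Smok3b. Smok3b had 0.305 and 0.377 CPM in WT against 15.4 and 22.5 CPM in KO. The genotypes did not overlap, and the 2 WT values amount to 1 estimated read together against 25 in KO. From reads rounded to whole numbers, the KO to WT ratio was 65.5. Its 95% exact conditional interval for counting error was 10.7 to 2689, which leaves out how shared reads were assigned. In bulk tissue such as this, fewer cells of a type and less RNA per cell cannot be told apart.

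Smok3c had the opposite pattern. It had 8.65 and 12.2 CPM in WT, or 14.9 and 22 estimated reads, and 0.0 estimated reads in either KO library. The deposited KO values were 2.41e-06 and 2.86e-13 CPM, so they were not exact zeros. Such values above 0 and under a thousandth of a read were listed for 1332 and 1581 of 29342 transcripts in the KO libraries and for 440 and 502 in the WT libraries. Against a floor of 3 reads over both KO libraries, which takes no account of counting error in WT, Smok3c was at least 4.71-fold lower in KO. The 95% exact conditional interval for counting error put the KO to WT ratio between 0 and 0.275. Like the floor, that interval leaves out how shared reads were assigned. Of the 100-base windows of Smok3c, 53.5% were found in no other gene. On the log2(CPM + 1) scale the difference, KO minus WT, was 3.87 for Smok3b and -3.49 for Smok3c. Its size depends on the added constant, and with 0.1 in place of 1 CPM it was 5.41 and -6.69.

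Smok3a showed the widest scatter. It had 14.6 and 18.03 CPM in WT against 3.36 and 24.7 CPM in KO, so the KO values lay on either side of WT. Its form of 3 exons carried 9.32 and 15.8 CPM in WT against 3.36 and 18.03 CPM in KO. Its form of 2 exons carried 5.24 and 2.28 CPM in WT against 4.02e-05 and 6.69 CPM in KO. KO replicate 1 was low in each form, and without that library the log2 difference of Smok3a turned from -0.70 to 0.58.

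**Figure D3:**
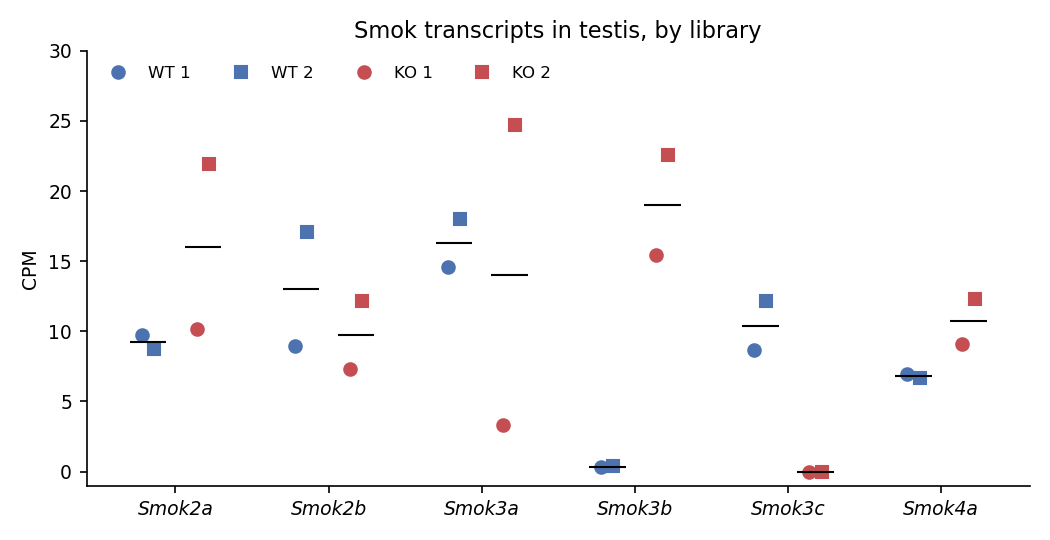
CPM of each Smok gene (y axis, linear) in the 4 libraries, with WT in blue, KO in red, replicate 1 as circles, replicate 2 as squares and the mean of 2 libraries as a line. Smok3b is near 0 in WT and at 15.4 and 22.5 in KO, and Smok3c is at 8.65 and 12.2 in WT and near 0 in KO.

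Added together, the Smok3 genes overlapped between the genotypes. Their sum was 23.5 and 30.6 CPM in WT against 18.8 and 47.3 CPM in KO, means of 27.04 ± 4.98 and 33.01 ± 20.2 CPM (SD, n = 2), and a log2 difference of 0.15. That difference had no stable sign. Leaving out WT replicate 1 gave -0.03, leaving out KO replicate 2 gave -0.49, and leaving out KO replicate 1 gave 0.79. The composition of that sum was alike within WT and differed from KO. Smok3a made up 61.9% and 58.99% of it in WT, Smok3c 36.8% and 39.8%, and Smok3b 1.30% and 1.23%. In KO, Smok3b made up 82.1% of it in replicate 1 and 47.7% in replicate 2, with Smok3a as the remainder. The KO libraries thus agreed on the lack of Smok3c reads but not on how the rest was divided between Smok3a and Smok3b. Smok3a and Smok3b together, which share their coding sequence, had 14.9 and 18.4 CPM in WT against 18.8 and 47.3 CPM in KO, or 59 estimated reads against 42. The KO to WT ratio was 1.86, with a 95% exact conditional interval for counting error of 1.22 to 2.82. That interval leaves out the spread between the KO libraries and how reads shared with Smok3c were assigned. With Smok3c added, the ratio was 1.15, with an interval of the same kind of 0.778 to 1.66.

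**Figure D4:**
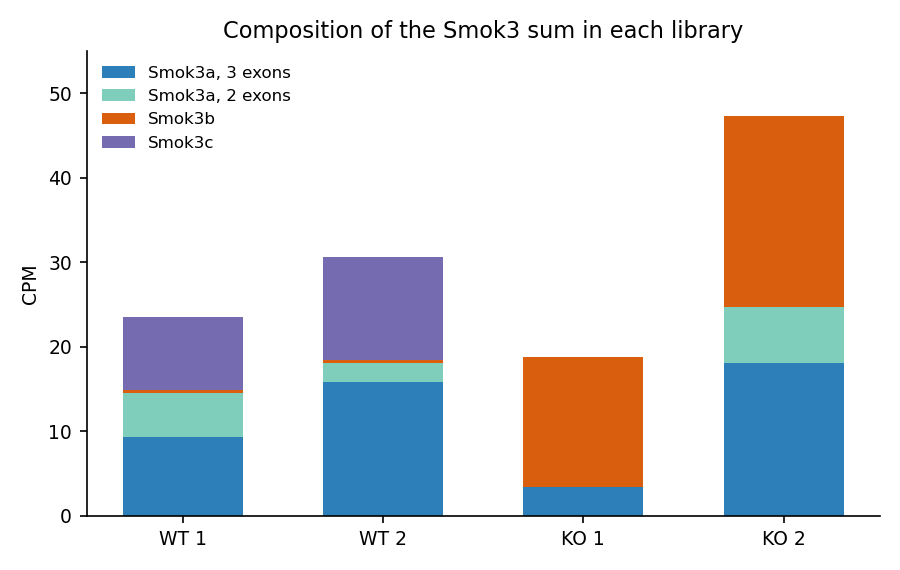
Stacked CPM of the Smok3 transcripts (y axis) in each of the 4 libraries. Smok3c is present only in the WT bars, Smok3b is a thin layer there (1.30% and 1.23%), and Smok3b takes 82.1% and 47.7% of the KO bars.

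Other pairs of near-identical genes were read in the same way, a description added after seeing the data. Smok3b and Smok3c were chosen for their difference, so their place among these pairs supports nothing. Of 154 pairs of separate loci that shared at least 25% of 100-base windows, 112 summed to at least 5 CPM in every library. The share of the first gene within its pair differed between the genotype means by a median of 8.2 percentage points. It differed by at least 80 points, with no overlap of the genotypes, in 1 pair, which was Smok3b with Smok3c (0.893%). Smok3b had 3.41% and 3.01% of that pair in WT and 100% in each KO library, a difference of 96.8 points. The next was Gm16445 with Samt1c at 68.7 points, followed by Smok3a with Smok3b at 62.9 points. Within a genotype, 0 of the 112 pairs differed by 80 points between the WT libraries and 1 did between the KO libraries. Among 13167 pairs of transcripts of the same gene, 56 (0.425%) traded places between the genotypes, 212 (1.61%) between the WT libraries and 709 (5.38%) between the shallower KO libraries. The counts between genotypes compare means of 2 libraries and also require no overlap. Those within a genotype compare single libraries, so the shares cannot be set against each other. Whether the assignment of shared reads plays a part in the Smok3 values was not tested.

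**Figure D5:**
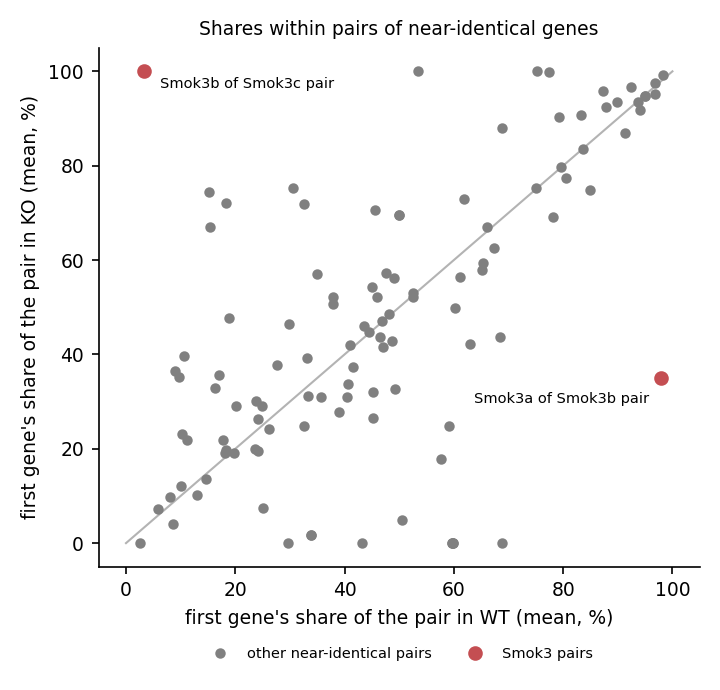
Mean share of the first gene within each of 112 pairs of near-identical genes in WT (x axis, %) and in KO (y axis, %), with the diagonal marking equal shares. The pair of Smok3b and Smok3c lies at the upper left corner, at 3.21% in WT and 100% in KO.

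Which of the Smok2 genes on chromosome 17 was higher changed between libraries, with Smok2a at 33.97% of their sum in WT replicate 2 and 64.3% in KO replicate 2. Smok2a had 9.73 and 8.77 CPM in WT against 10.2 and 21.9 CPM in KO. The genotypes did not overlap, though KO replicate 1 stood just above WT and KO replicate 2 well above. Smok2b had 8.93 and 17.1 CPM in WT against 7.34 and 12.2 CPM in KO, and these values overlapped. Their log2 differences were 0.64 and -0.35, and that of Smok2b turned to 0.08 without WT replicate 2. Together they summed to 18.7 and 25.8 CPM in WT against 17.5 and 34.1 CPM in KO, again with KO replicate 1 lowest and KO replicate 2 highest.

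Smok4a, the pseudogene transcript, had 6.98 and 6.68 CPM in WT against 9.13 and 12.3 CPM in KO, a log2 difference of 0.57. The genotypes did not overlap, on 24 estimated WT reads and 14 KO reads. The ratio was 1.53, with a 95% exact conditional interval for counting error of 0.731 to 3.08. That interval includes no difference but leaves out the spread between libraries, so it is no test of one. The gene that spans it on the other strand, 2700054A10Rik, had 9.89 and 7.74 CPM in WT against 9.42 and 13.4 CPM in KO. The overlap is one of gene spans. 2700054A10Rik was not among the genes whose GENCODE transcripts, on either strand, shared a 50-base window with Smok4a. The sources used here do not say whether reads were counted by strand. The balance between the listed transcripts of 2700054A10Rik also differed between the genotypes. Its transcript of 4348 bases had 9.05 and 7.39 CPM in WT against 1.58 and 2.24 CPM in KO. That of 4208 bases had 0.833 and 0.356 CPM in WT against 7.85 and 11.1 CPM in KO. These are 29 estimated WT reads against 3 KO reads for the longer and 2 against 13 for the shorter.

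Over the family, the genotypes did not overlap for 4 of 6 members, namely Smok2a, Smok3b and Smok4a with KO higher and Smok3c with KO lower. Over all genes tested they did not overlap for 34.3%, with KO higher for 15.1% and lower for 19.2%. Since the members were chosen from this comparison, nothing is read from that count. All 6 members passed the filter on low values, a mean of 1 CPM or more. The family sum was 49.2 and 63.1 CPM in WT against 45.4 and 93.7 CPM in KO, means of 56.1 ± 9.83 and 69.5 ± 34.1 CPM (SD, n = 2). The log2 difference was 0.23, and leaving out KO replicate 2 gave -0.29 and leaving out KO replicate 1 gave 0.74. KO replicate 1 was the lowest library and KO replicate 2 the highest, and the same libraries were lowest and highest for the elongating spermatid markers given above, while the WT libraries stood in the opposite order. Round spermatid markers did not follow, at 1016 and 1007 CPM in WT against 1080 and 1060 CPM in KO. The part of spermatid content in these sums was not tested. The Smok3 genes made up between 41.3% and 50.5% of the family sum in every library.

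Per length of transcript, the members lay between percentiles 32.6 and 57.0 of 17934 genes by CPM per kilobase, averaged over the 4 libraries of both genotypes. For Smok3b and Smok3c that average joins a genotype near 0 with one well above it, so their percentiles describe neither genotype. In WT the order of levels per kilobase was Smok3a (7.19 ± 1.33), Smok2b (5.64 ± 2.49), Smok2a (5.18 ± 0.378), Smok3c (4.46 ± 1.06), Smok4a (2.95 ± 0.0924) and Smok3b (0.146 ± 0.0217; CPM per kilobase, SD, n = 2). Neighbours among the first 4 overlapped between libraries, whereas Smok3c and Smok4a, and Smok4a and Smok3b, did not. In KO the order was Smok2a (8.98 ± 4.64), Smok3b (8.14 ± 2.16), Smok3a (6.18 ± 6.54), Smok4a (4.63 ± 0.975) and Smok2b (4.23 ± 1.48), with Smok3c near 0. Each of those 5 overlapped with its neighbour in the order, and Smok3a overlapped with all the others. Smok2a and Smok3b nevertheless each lay above Smok4a and Smok2b without overlap. With 2 libraries of few reads, this ranking is not firm.

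The measured genes nearest to the Smok loci were read for comparison. Next to the Smok3 genes, Zkscan1, a zinc finger gene 18.5 kb away, had 16.5 and 14.0 CPM in WT against 16.03 and 17.6 CPM in KO. On the other side, 198.7 kb away, Zcwpw1, a reader of histone marks at meiotic recombination sites, had 20.9 and 18.9 CPM in WT against 33.4 and 23.4 CPM in KO. Around the chromosome 17 members, the t complex gene Tcp10c had 490 and 392 CPM in WT against 405 and 366 CPM in KO. Unc93a had 16.7 and 17.04 CPM in WT against 26.8 and 3.46 CPM in KO, and the t complex gene Tcte2 had 122 and 125 CPM in WT against 109.5 and 80.3 CPM in KO. None of these 5 neighbours passed (limma, BH-adjusted p from 0.9502 to 0.977).

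Lists of genes linked to sperm motility kinases by function or ancestry held no gene that passed. Of 12 genes of the t complex responder and distorter pathway, 0 passed in either direction (limma, BH), 0 had an unadjusted p under 0.05, and the median log2 difference was -0.19. Over all 17654 genes tested, 765 had an unadjusted p under 0.05 and the median was -0.04. Rps6ka2, whose sequence is part of the responder in the t haplotype, had 30.8 and 45.04 CPM in WT against 36.1 and 18.5 CPM in KO.

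Of 22 AMPK-related kinase genes, 0 passed in either direction (limma, BH), 1 had an unadjusted p under 0.05, and the median log2 difference was -0.07. Brsk1, encoding a kinase of this family best known from neurons, had 78.1 and 81.9 CPM in WT against 62.6 and 56.7 CPM in KO. Prkaa1, encoding a catalytic subunit of AMPK, had 37.3 and 31.1 CPM in WT against 21.4 and 24.8 CPM in KO. Stradb, encoding a pseudokinase partner of the upstream kinase of AMPK, had 12.8 and 12.1 CPM in WT against 13.4 and 26.9 CPM in KO. Brsk1 and Prkaa1 stood lower in KO and Stradb higher, without overlap, at a BH-adjusted p by limma of 0.9502 for each. Of 7 measured genes of the testis-specific serine kinase list, which are also expressed in spermatids, 0 passed and 1 had an unadjusted p under 0.05. That was Tssk5, with 24.2 and 24.6 CPM in WT against 15.7 and 11.7 CPM in KO (BH-adjusted p = 0.9502 by limma).

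Lists of genes for sperm movement and spermatids likewise held no gene that passed. Of 24 sperm motility signalling genes, 0 passed in either direction (limma, BH) and 0 had an unadjusted p under 0.05, with a median log2 difference of -0.02. Of 23 haploid spermatid genes, 0 passed and 1 had an unadjusted p under 0.05, Spaca1, an acrosome membrane protein gene with 140 and 128 CPM in WT against 179 and 182 CPM in KO. The haploid list summed to 45429 and 45662 CPM in WT against 40599 and 52029 CPM in KO. Of 18 measured testis genes of the t complex region, 0 passed and 2 had an unadjusted p under 0.05. These were Dynlt1b, a dynein light chain gene with near-identical copies, at 353 and 899 CPM in WT against 886 and 2144 CPM in KO, and Rsph3a, a radial spoke gene, at 301 and 223 CPM in WT against 214 and 98.1 CPM in KO.

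The genes whose pattern over the 4 libraries was most like a Smok pattern were found by Euclidean distance of centred log2(CPM + 1), among genes of a mean within 1 log2 unit, leaving out predicted genes known only by a clone or model number. For the family sum the nearest of 3748 genes was Dynlt1a (distance 0.075), at 44.6 and 57.4 CPM in WT against 39.1 and 86.7 CPM in KO, followed by Mycbp (0.168) and Psd (0.174). For Smok3c the nearest of 4527 genes were Pcdhgb1 (0.519), Trip10 (0.666) and Tnk1 (0.674), each under 0.02 CPM in both KO libraries. For Smok3b no gene came as close among 5060. Tas1r1, the umami receptor subunit gene, was nearest (1.47), at 3.23 and 3.52 CPM in WT against 19.8 and 25.1 CPM in KO, followed by Ephx4 (1.81) and Pla2g15 (2.01).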

How the data were processed

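The authors deposited 1 table per library of normalized values for 29342 RefSeq transcripts on mm39. Each column has the same sum, 1000000, so the deposited unit was taken as CPM. STAR and Partek are named per the submitters' processing notes, and versions are not given in the sources used here. The span was 1 base longer than in RefSeq (GRCm38.p6) for 5174 of 5806 transcripts compared, so the stop was read as 1 past the last base and lowered by 1, which need not hold for every transcript. Values were summed per symbol. The CPM of 1 read was taken from the steps between low values, and estimated reads are CPM divided by it. Many values are fractions of a read, so no count model was fitted. Intervals and floors cover counting error only, and like the ratios they were taken from reads rounded to whole numbers.

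Tests used limma 3.58.1 (R 4.3.3) after adding 1 CPM and taking log2, for the 17654 genes averaging 1 CPM or more, with a trend of variance on level and BH adjustment over all of them. The procedure was tested on simulated data, with large changes placed only in genes of higher levels than the Smok genes. That test therefore does not cover genes at Smok levels. Alternatives changed the pseudocount, the filter, the scaling (trimmed mean of M values or quantiles), the trend, the threshold and the block, or left out a library. Near-identical pairs and window sharing were examined after seeing the data. The members and the gene lists were chosen with earlier results of these data known. Named genes were the members, Tas1r3, up to 4 genes per list by unadjusted p, the nearest neighbours of each locus and the genes most like a pattern, of which some are left out of the text. Other genes annotated as sperm motility kinases were to be named as well, but the reference table used here carries no descriptions. Transcripts were aligned with mafft 7.526 on GENCODE M21 (GRCm38), which can differ in version from the deposited transcripts: the 3-exon Smok3a transcript has 2160 bases in the tables and 2327 in GENCODE. Figures were drawn with matplotlib 3.10.9.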

Additional observations from a re-analysis of the deposited data

How the results depend on the processing

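The number of genes called was 1 in the main setting, 0 with a pseudocount of 0.1 CPM, 0 without the mean-variance trend, and 0 to 954 with a library left out. The fits without a KO library, which assume that the lone KO library varies like the WT pair, called 954 and 413 genes, and those without a WT library called 0. With the replicate number as a block it was 24, and 2 list genes were called, Dynlt1b and Rsph3a, against 0 without the block. The labels do not say whether same-numbered libraries share anything but the number. The correlation of same-numbered deviations was -0.006 over 17654 genes and -0.06 over the 5803 genes averaging 30 CPM or more. Each rests on 1 difference per genotype, so it cannot settle whether they do. With a library left out, 0 to 13 list genes were called. With a library left out, the log2 difference ran from -0.49 to 0.79 for the Smok3 sum and from -0.29 to 0.74 for the family sum, so its sign rests on single libraries. In the other alternatives run it stayed positive, at 0.15 to 0.27 and 0.22 to 0.28. Of 60 alternative values for single members, 58 kept their sign, and the 2 that did not, for Smok2b and Smok3a, are given above. Depth limits the rest: a read is worth 1.34 and 1.67 CPM in the KO libraries.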
